A study of Mus musculus with 6 samples.

Results

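The genes described here encode ligands of the epidermal growth factor receptor EGFR, that receptor itself, the urokinase system, which turns plasminogen into plasmin, and the receptor of the cytokine TWEAK. They were chosen by name, as every probe set annotated to Areg, Ereg, Hbegf, Btc, Tgfa, Egfr, Plaur, Plau, Plat or Tnfrsf12a. Of these 10 genes, 9 had probe sets paired with them alone in the platform annotation, 22 probe sets in all, among 18193 genes measured. Areg, which encodes the EGFR ligand amphiregulin, had 0 probe sets under that name in this annotation and was not analysed here. The 6 arrays each carried RNA of intestinal epithelial cells from 1 animal of strain C57BL/6. In 3 caspase-8 deficient animals, which carried floxed caspase-8 alleles and the villinCre transgene, Cre recombinase driven by the villin promoter cuts the gene in the gut epithelium. The 3 floxed control animals carried the floxed alleles without the transgene, so that the groups differed in Cre as well as in caspase-8, and no group with Cre alone was analysed here. The labels read here give no age, no sex and no segment of the gut.

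EGFR is a receptor tyrosine kinase of the crypt and villus epithelium. Its ligands are made as membrane-bound precursors and released by proteases of the ADAM family, and the signal, carried largely by the kinase ERK, drives proliferation and closure of wounds. Urokinase, encoded by Plau, and tissue plasminogen activator, encoded by Plat, cut plasminogen to plasmin, and the urokinase receptor, encoded by Plaur, holds urokinase at the cell surface, where migrating cells use it. Fn14, encoded by Tnfrsf12a, is a small receptor of the TNF receptor family that binds TWEAK and is known to be induced in injured epithelium.

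The arrays were alike in scale, with medians between 4.85 and 4.91 on the log2 scale, and 12 epithelial markers averaged 12.51 to 12.58 in the caspase-8 deficient cells and 12.41 to 12.51 in the floxed controls. On the Gapdh control probe sets the 3′ signal exceeded the 5′ signal, by a margin that grows with RNA degradation, by 0.29, 0.21 and 0.23 in deficient replicates 1, 2 and 3, against 0.68, 0.93 and 0.22 in control replicates 1, 2 and 3. Deficient replicate 1 stood apart. It exceeded all other arrays by more than 1 log2 unit on 211 genes, and the other arrays did so on 1 to 33 genes each. Casp8 read 9.27, 9.56 and 10.40 in deficient replicates and 10.53, 9.74 and 10.24 in control replicates, and its difference of −0.43 did not pass (limma adjusted p = 0.518). Since the deleted exons are not named in the labels, the Casp8 probe set cannot check the genotypes.

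The urokinase receptor gene Plaur rose 1.70-fold in caspase-8 deficient cells and was the 1 gene of the 9 to pass the test, while 0 fell and 8 did not pass. Tnfrsf12a stood at 2.22-fold and Egfr at 1.87-fold, both with separated groups, and neither passed. Among the ligands Btc stood at 1.61-fold, Hbegf at 1.27-fold, Tgfa at 1.23-fold and Ereg at 1.18-fold, and 0 of these 4 passed. The urokinase gene Plau stood at 1.14-fold and did not pass, and Plat was high on 1 array alone. The test was limma's moderated test across all genes, with each gene represented by its probe set of highest mean and p-values adjusted by Benjamini-Hochberg over all 18193 genes at a threshold of 0.05. In that fit 0.775% of all genes passed, 0.308% as higher in deficient cells.

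All 9 gene-level differences were positive, as were those of 53.9% of all genes, and the median was 0.69 on the log2 scale against 0.02 over all genes. The 3 deficient arrays lay above all 3 control arrays for 5 of the 9 genes, Plaur, Tnfrsf12a, Egfr, Btc and Tgfa, against 11.5% of all genes. An unadjusted p under 0.05 with a positive difference was found for 5 of the 9, against 8.12% of all genes. These shares describe genes that were picked with earlier results of the same arrays known. In bulk RNA, a change in the number of cells of a type and a change in RNA per cell cannot be told apart. The panels by array show these 9 genes.

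**Figure D1:**
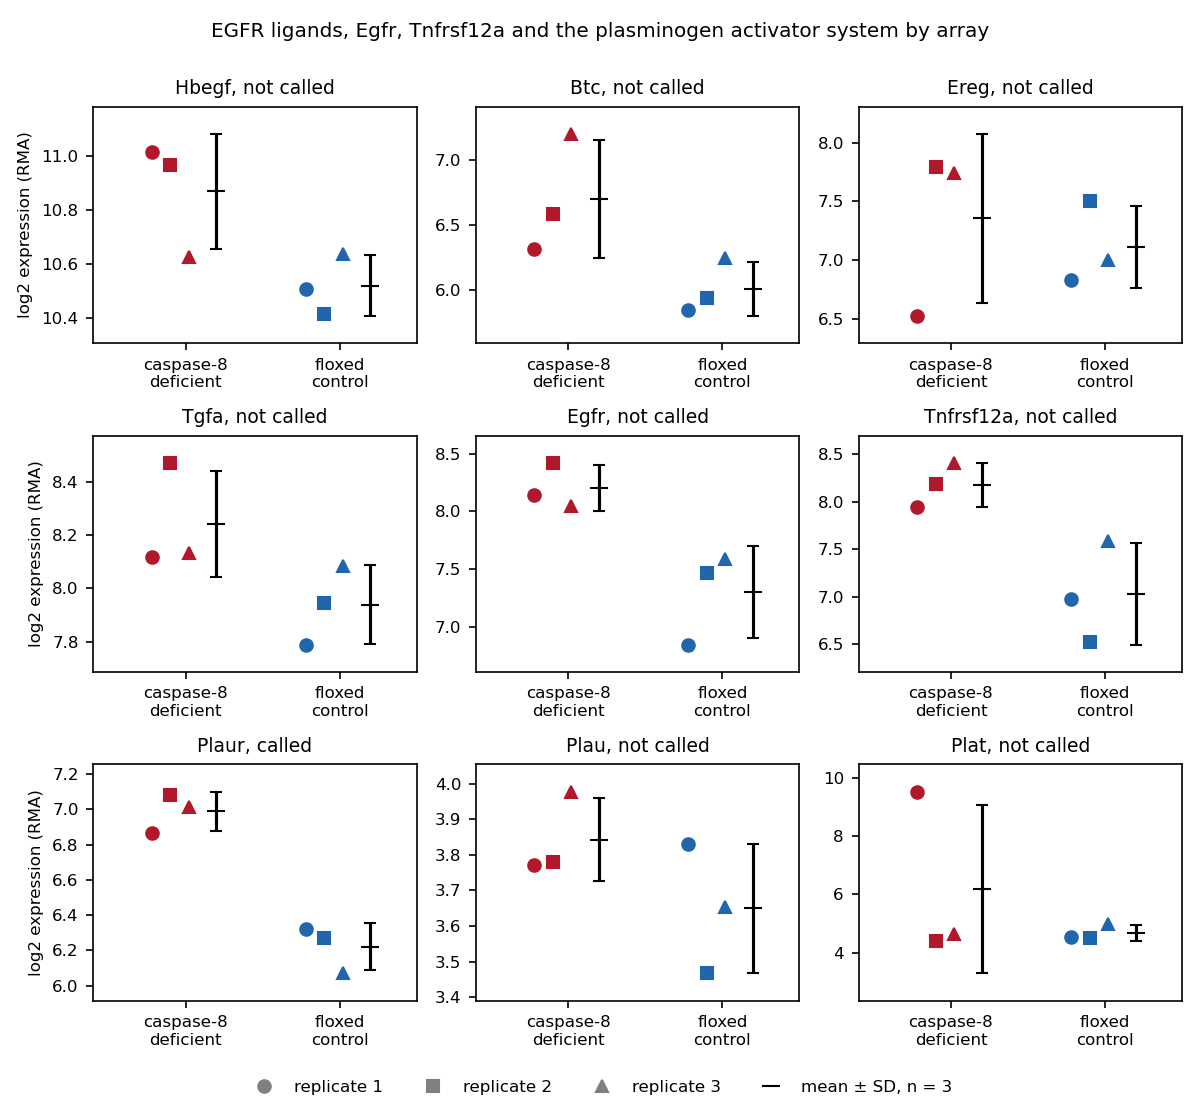
Log2 expression (RMA) of the 9 measured genes on each array, by the probe set with the highest mean; symbols mark replicate numbers, and bars the mean ± SD (n = 3 per group), each panel having its own axis. Plaur is separated by the widest gap between the groups, 0.54 log2 units, and Plat stands at 9.53 on deficient replicate 1 and between 4.40 and 5.0 on the other 5 arrays.

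Plaur read 6.86, 7.08 and 7.02 in the deficient replicates and 6.32, 6.27 and 6.07 in the control replicates on the log2 scale. The groups did not overlap, and the gap of 0.54 between the lowest deficient and the highest control array exceeded the range within either group, 0.22 in deficient cells and 0.25 in controls. Its mean was 6.99 ± 0.11 in deficient cells and 6.22 ± 0.13 in controls (SD, n = 3 each), a log2 difference of 0.77 (SE 0.12, 95% confidence interval 0.48 to 1.05, limma adjusted p = 0.0431). The value rests on 1 probe set, 1452521_a_at, the only probe set that the annotation pairs with Plaur. The difference was 0.83 without deficient replicate 1, where it passed (adjusted p = 0.0398). It did not pass without deficient replicate 2 (0.72, adjusted p = 0.179), deficient replicate 3 (0.75, adjusted p = 0.155), control replicate 1 (0.82, adjusted p = 0.147), control replicate 2 (0.79, adjusted p = 0.126) or control replicate 3 (0.69, adjusted p = 0.0968). Control replicate 3, the control whose Gapdh difference lay within the deficient range, had the lowest Plaur level of the controls. Against that control alone the difference was 0.92 (adjusted p = 0.451, with the spread taken from the deficient arrays). Over all alternatives the adjusted p ran between 0.00811 and 0.451.

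Tnfrsf12a, the TWEAK receptor gene, read 7.95, 8.18 and 8.41 in the deficient replicates and 6.97, 6.53 and 7.59 in the control replicates. All 3 deficient arrays were above the controls, whose own range of 1.06 was wider than the gap of 0.36 between the groups. Its mean was 8.18 ± 0.23 in deficient cells and 7.03 ± 0.53 in controls (SD, n = 3 each), a log2 difference of 1.15 (SE 0.26, 95% confidence interval 0.55 to 1.75, limma adjusted p = 0.0954). The other probe set, 1418572_x_at, of a type that can bind related sequences, stood at 1.29 (SE 0.24, adjusted p = 0.0798 over 34945 probe sets). Control replicate 3 was the highest control by both probe sets. Against that control alone the difference was 0.59, and with the Gapdh difference as a covariate it was 0.60. The parts of RNA quality and of other cells in the difference were not tested. The difference was 1.27 without deficient replicate 1, and passed in 2 alternatives, without dim genes (adjusted p = 0.0488) and with array weights (adjusted p = 0.0144), in a range of adjusted p from 0.0144 to 0.710.

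Egfr was measured by 7 probe sets that did not read alike. The probe set used for the gene, 1424932_at, read 8.14, 8.42 and 8.05 in the deficient replicates and 6.85, 7.47 and 7.59 in the control replicates. The groups were separated by 0.45, and the log2 difference was 0.90 (SE 0.21, 95% confidence interval 0.42 to 1.38, limma adjusted p = 0.10). Of the other probe sets, 1435888_at stood at 0.78 with separated groups and 1451530_at at 0.74 with overlapping ones. The remaining 4 stood at 0.26, 0.19, 0.03 and −0.07, all with overlapping groups. The probe set at 0.03, 1460420_a_at, read 7.23, 7.18 and 7.06 in deficient replicates and 6.93, 7.14 and 7.33 in control replicates, and its 95% confidence interval, −0.28 to 0.34, left out the 0.90 of the probe set used for the gene. The parts of the transcript that each probe set reads are not given in the files used here. With the mean over its 7 probe sets Egfr stood at 0.40. Without control replicate 1, the lowest control, it stood at 0.67 (limma adjusted p = 0.245). It passed with array weights alone (1.25, adjusted p = 0.0139), a fit in which that control had the largest weight. The adjusted p ran from 0.0139 to 0.695 over the alternatives.

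The promoters of Plaur, Tnfrsf12a and Egfr are shown because these genes had the widest gaps between the groups. Each is given 5′ to 3′ on the gene's strand, from 250 bases before the annotated start to 50 bases after it, from RefSeq on build GRCm38.p6. The capitals mark matches, on either strand, to the AP-1 letters TGANTCA and to the Sp1 letters GGGCGG.
Plaur, chr7:24462233-24462532, plus strand: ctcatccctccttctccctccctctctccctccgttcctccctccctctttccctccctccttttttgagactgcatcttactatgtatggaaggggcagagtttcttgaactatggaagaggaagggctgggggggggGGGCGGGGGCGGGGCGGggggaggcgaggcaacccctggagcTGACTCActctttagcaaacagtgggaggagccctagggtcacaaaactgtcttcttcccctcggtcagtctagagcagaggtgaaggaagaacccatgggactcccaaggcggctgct
Tnfrsf12a, chr17:23677400-23677699, minus strand: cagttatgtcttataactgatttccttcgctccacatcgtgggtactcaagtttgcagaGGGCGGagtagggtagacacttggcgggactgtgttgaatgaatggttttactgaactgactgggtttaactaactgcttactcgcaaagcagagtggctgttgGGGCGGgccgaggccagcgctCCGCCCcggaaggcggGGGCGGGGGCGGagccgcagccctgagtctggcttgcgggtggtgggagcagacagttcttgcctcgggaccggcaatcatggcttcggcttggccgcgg
Egfr, chr11:16751953-16752252, plus strand: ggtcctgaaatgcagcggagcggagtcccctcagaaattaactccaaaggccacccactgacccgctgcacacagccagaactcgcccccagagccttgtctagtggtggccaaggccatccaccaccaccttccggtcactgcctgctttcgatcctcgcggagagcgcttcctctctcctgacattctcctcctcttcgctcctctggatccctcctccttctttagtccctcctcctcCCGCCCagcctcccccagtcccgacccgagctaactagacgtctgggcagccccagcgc
The AP-1 letters occurred once in the Plaur window, as TGACTCA at −69 to −63 relative to the start, and in 0 of the windows of the other described genes. Of all 32851 promoter windows in the table, 7.8% held them. The Sp1 letters had 3 matches in Plaur, 5 in Tnfrsf12a and 1 in Egfr, and 35.7% of all windows held at least 1. No AP-1 match overlapped an Sp1 match, while 2 of those in Plaur overlap each other by 1 base. Windows were found for 6 of the 10 genes.

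Among the ligands, Btc, which encodes betacellulin, read 6.32, 6.59 and 7.2 in the deficient replicates and 5.85, 5.94 and 6.25 in the control replicates. The groups were separated by 0.07, less than the range within either group, and the difference was 0.69 (SE 0.23, 95% confidence interval 0.16 to 1.21, limma adjusted p = 0.201). Its other probe set, 1421161_at, read 2.71, 4.41 and 4.38 in deficient replicates and 3.14, 3.19 and 3.30 in control replicates. On that dim probe set deficient replicate 1 was the lowest of all 6 arrays, and the other deficient arrays were the highest. Without deficient replicate 3 the difference of Btc by the probe set used for the gene was 0.44, and without deficient replicate 1 it was 0.88.

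Hbegf, the gene of heparin-binding EGF-like growth factor, had 2 probe sets. The one with the higher mean, 1418350_at, read 11.01, 10.97 and 10.62 in the deficient replicates and 10.51, 10.42 and 10.64 in the control replicates. Control replicate 3 lay 0.01 above deficient replicate 3, so that the groups met, and the difference was 0.35 (SE 0.14, 95% confidence interval 0.02 to 0.67, limma adjusted p = 0.271). By 1418349_at the arrays read 10.07, 10.04 and 9.82 in deficient replicates and 9.47, 9.28 and 9.67 in control replicates, without overlap. That difference was 0.50 (SE 0.14, adjusted p = 0.177 over all probe sets).

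Tgfa, the gene of transforming growth factor alpha, read 8.12, 8.47 and 8.13 in deficient replicates and 7.79, 7.94 and 8.08 in control replicates by the probe set used. The groups were separated by 0.03, and the difference was 0.30 (SE 0.14, 95% confidence interval −0.03 to 0.63, limma adjusted p = 0.341). Its other probe sets stood at 0.01 and −0.11, so that the 3 disagreed in sign. Ereg, the gene of epiregulin, read 6.52, 7.79 and 7.74 in deficient replicates and 6.83, 7.50 and 7.0 in control replicates. Deficient replicate 1 was below every control and the other deficient arrays were above them all. Its difference was 0.24 (SE 0.34, 95% confidence interval −0.55 to 1.03, limma adjusted p = 0.761), and 0.66 without deficient replicate 1 (adjusted p = 0.170, in a range of 0.152 to 0.986 over the alternatives).

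Across all 22 probe sets, 0 passed when tested separately (limma, over 34945 probe sets, of which 0.398% passed), and 9 had an unadjusted p under 0.05 with a positive difference, against 7.64% of all probe sets. The smallest adjusted p was that of the Plaur probe set, at 0.0566. Of the 22 differences 20 were positive, against 53.2% of all probe sets, with a median of 0.37 on the log2 scale against 0.02 over all probe sets. The groups were separated on 8 of the 22, each with the deficient arrays above. Over all probe sets 3831 of 34945 were separated with the deficient arrays above, and 21.1% were separated in either direction. Probe sets of 1 gene share that gene's RNA and are not independent. The interval plot sets them side by side.

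**Figure D2:**
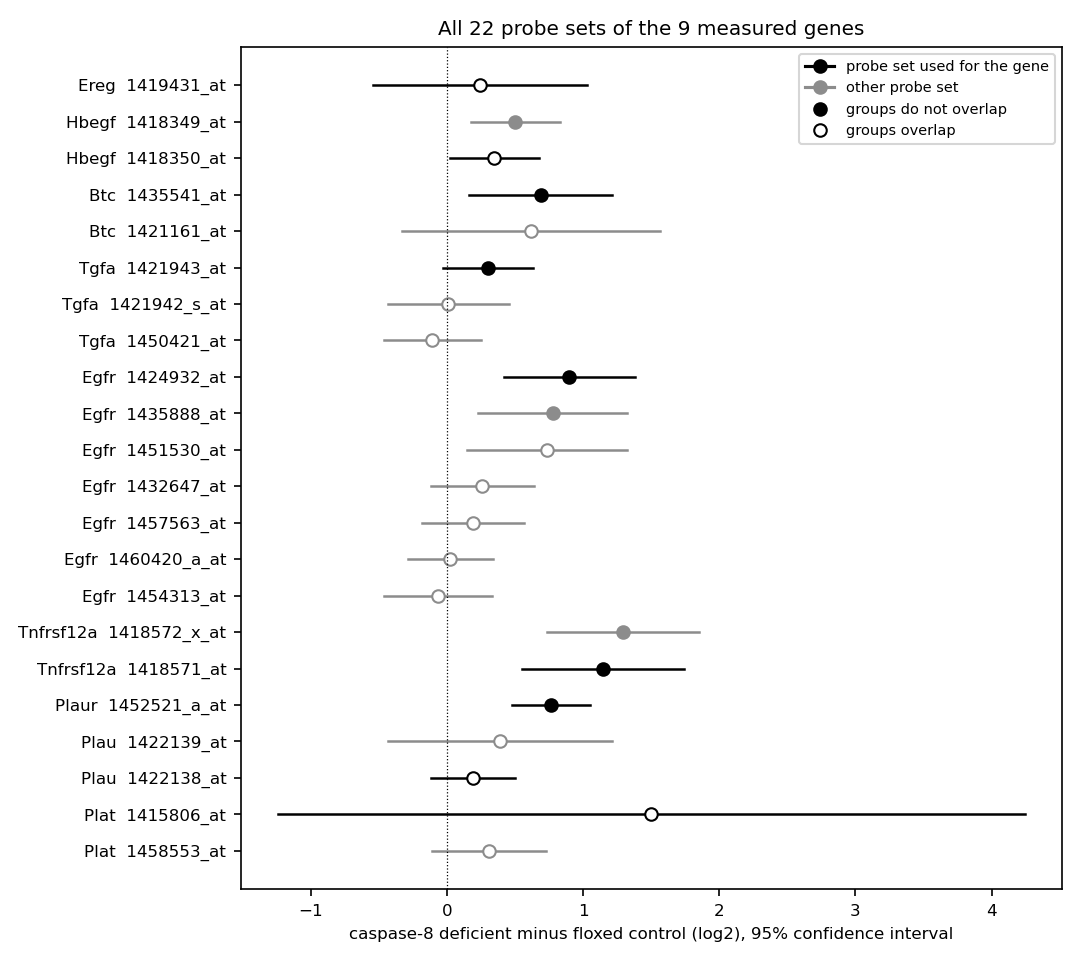
Log2 difference, caspase-8 deficient minus floxed control, with its 95% confidence interval for each of the 22 probe sets (n = 3 arrays per group); black marks the probe set used for the gene, grey the others, and filled points have groups that do not overlap. The 7 Egfr probe sets run between −0.07 and 0.90, both Tnfrsf12a probe sets lie above 1, and the interval of Plat 1415806_at, −1.24 to 4.24, is the widest.

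Neither plasminogen activator gene passed. Plau, which encodes urokinase, was dim, with 3.77, 3.78 and 3.98 in the deficient replicates and 3.83, 3.47 and 3.65 in the control replicates. The groups overlapped, and the difference was 0.19 (SE 0.13, 95% confidence interval −0.12 to 0.50, limma adjusted p = 0.506). On its other probe set, 1422139_at, deficient replicate 1 read 3.77 and the other 5 arrays 2.28 to 2.53.

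Plat, the gene of tissue plasminogen activator, which endothelial cells make, read 9.53, 4.40 and 4.63 in the deficient replicates and 4.54, 4.52 and 5.0 in the control replicates. The high value on deficient replicate 1 lay 4.53 log2 units above the next array, the sixth largest such lead among 18193 genes on that array. Without that array the difference was −0.17 (SE 0.18, limma adjusted p = 0.702), against 1.5 with it (SE 1.2, adjusted p = 0.564), in a range of adjusted p from 0.476 to 0.922 over the alternatives. By its other probe set, 1458553_at, Plat read 4.70, 4.22 and 4.25 in deficient replicates and 3.83, 4.32 and 4.10 in control replicates. Markers of other tissues moved on the same array. The 12 endothelial markers averaged 6.76, 4.5 and 4.49 in deficient replicates and 4.63, 4.29 and 4.5 in control replicates, and 10 of the 12 were over 1 log2 unit higher on deficient replicate 1 than on any other array. The 11 measured kidney tubule markers averaged 6.24, 4.52 and 4.38 in deficient replicates and 4.52, 4.40 and 4.44 in control replicates, with 6 of the 11 over 1 log2 unit higher on that array. The endothelial Emcn read 8.97 there and 2.59 to 3.50 elsewhere, and the kidney tubule gene Umod 7.87 there and 2.69 to 3.55 elsewhere. The part of these cells in the Plat value was not tested. Of the 9 genes, Plat alone was over 1 log2 unit higher on deficient replicate 1 than on every other array. Deficient replicate 1 was the lowest deficient array for 6 of the 9 genes, against 33.9% of all genes.

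**Figure D3:**
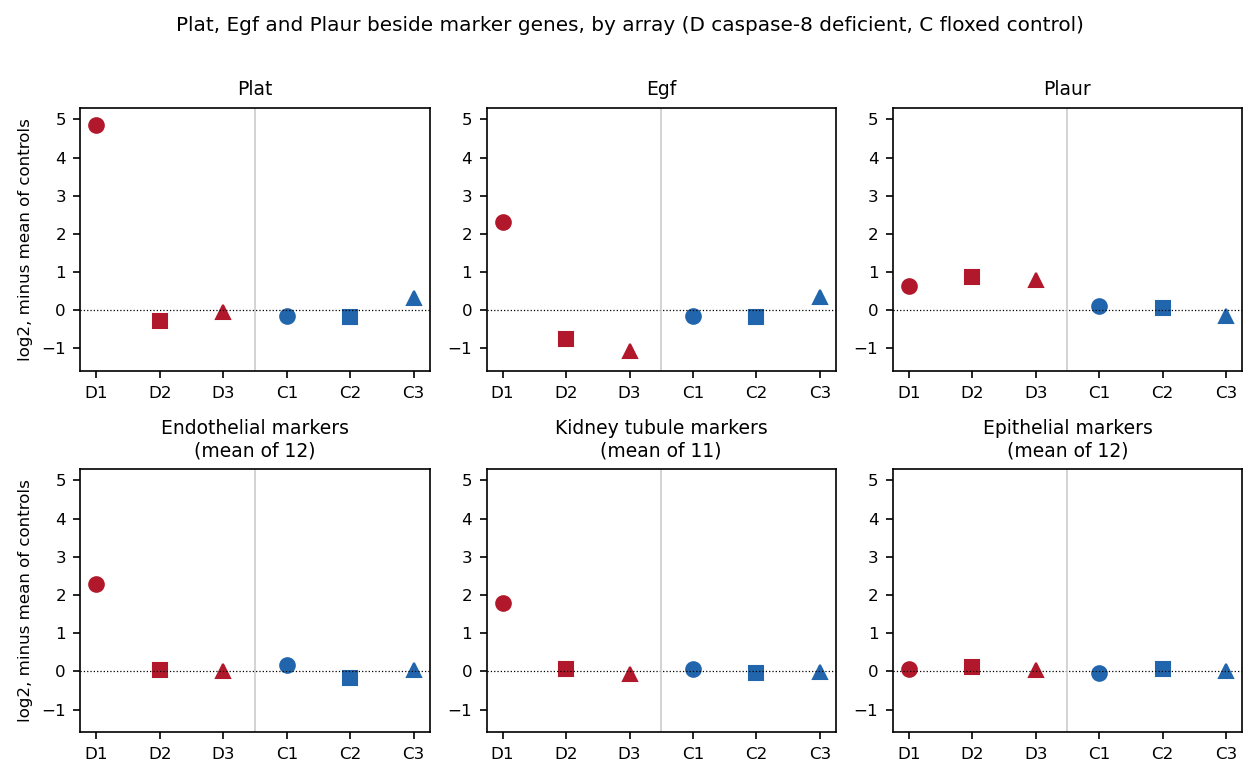
Log2 value on each array minus the mean of the 3 controls, for Plat, Egf and Plaur and for the mean of 12 endothelial, 11 kidney tubule and 12 epithelial markers (D caspase-8 deficient, C floxed control, replicates 1 to 3). Deficient replicate 1 is high for Plat, Egf and the endothelial and kidney tubule markers, and lies with the other deficient arrays for Plaur and for the epithelial markers.

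Of other cell types, the 12 fibroblast and smooth muscle markers averaged 4.36 to 5.33 in deficient cells and 4.29 to 4.81 in controls, and the 11 measured myeloid markers 5.53 to 5.72 in deficient cells and 5.18 to 5.60 in controls. The 10 measured T and B lymphocyte markers averaged 6.66 to 6.99 in deficient cells and 6.87 to 7.64 in controls, and the 9 measured pancreatic markers 4.72 to 4.82 in deficient cells and 4.41 to 5.14 in controls. Of these 42 genes 1 passed, against 0.775% of all genes, the macrophage receptor gene Mrc1 (1.06, limma adjusted p = 0.0172). Of the 11 myeloid markers 6 had positive and 5 negative differences, with a median of 0.08 on the log2 scale. The deficient arrays lay above the controls for 3 of the 11 and below them for 1, against 11.5% of all genes above. The 3 were Mrc1, Cd14 (0.21, limma adjusted p = 0.393) and S100a9 (0.80, adjusted p = 0.438). S100a9 read 5.51, 3.50 and 3.62 in deficient replicates 1, 2 and 3. Itgam, an integrin gene of myeloid cells, had its deficient arrays below the controls at −0.32 (adjusted p = 0.252), and the pan-leukocyte gene Ptprc stood at −0.47 with overlapping groups (adjusted p = 0.349). Myeloid cells can make urokinase and its receptor, and the part of these cells in the Plaur difference was not tested.

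Partner genes of the 3 systems were put in lists written with earlier results of these arrays known. Of 110 measured genes in 9 lists, 2 rose, 0 fell and 108 did not pass. The 2 are 1.82% of the 110, against 0.775% of all genes that passed in either direction and 0.308% that passed as higher. The partner genes had a median difference of 0.10 on the log2 scale against 0.02 over all genes. Both that rose were in the list of wound-associated epithelium. Il1rn, the interleukin-1 receptor antagonist gene, stood at 3.31 (SE 0.30, limma adjusted p = 0.00457) and Anxa1, the annexin A1 gene, at 2.94 (SE 0.39, adjusted p = 0.0247). Other probe sets stood lower, at 1.0 and 1.81 for Il1rn and 0.49 for Anxa1. Anxa1 read 7.85, 8.15 and 8.15 in deficient replicates and 4.92, 4.31 and 6.11 in control replicates. Its difference was 2.01 with the Gapdh difference as a covariate (adjusted p = 0.0115) and 1.94 against control replicate 3 alone (adjusted p = 0.192). It passed without deficient replicate 1 or control replicate 3, and did not pass without deficient replicate 2, deficient replicate 3, control replicate 1 or control replicate 2 (adjusted p = 0.133, 0.117, 0.122 and 0.0784), in a range of adjusted p from 0.00224 to 0.192 over the alternatives. Il1rn did not pass without deficient replicate 3 (3.35, adjusted p = 0.0532), with the Gapdh covariate (3.17, adjusted p = 0.0676) or against control replicate 3 alone (3.09, adjusted p = 0.426), in a range from 0.000513 to 0.426. The other 17 of the 19 measured genes in that list did not pass.

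Of the other EGFR family ligands 0 of 6 passed. Epgn, which encodes epigen, read 3.03, 3.33 and 2.97 in deficient replicates and 3.62, 3.23 and 3.37 in control replicates (difference −0.30, limma adjusted p = 0.374). Egf itself, which the kidney makes in large amounts, read 6.67, 3.58 and 3.29 in deficient replicates and 4.19, 4.16 and 4.69 in control replicates. Its difference was 0.17 with all arrays (limma adjusted p = 0.939) and −0.91 without deficient replicate 1 (adjusted p = 0.0817), the array on which the kidney tubule markers were high. The part of kidney cells in the Egf value was not tested. The neuregulin genes Nrg2 and Nrg1 stood at 0.23 and 0.10. Of the partner receptors Erbb3, Erbb4 and Erbb2, at 0.22, 0.09 and −0.02, 0 of 3 passed. Nrg1 and Erbb4 were dim, at 2.45 to 2.59 and 1.84 to 2.08 over the 6 arrays. Their small differences therefore do not show that their RNA was unchanged. Nor did any of 10 genes of ligand shedding, with the proteases Adam15, Adam12 and Adam19 at −0.23, 0.45 and −0.39 (limma adjusted p = 0.364, 0.427 and 0.554). The other Adam15 probe sets had the opposite sign, at 0.06, 0.04 and 0.21.

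Of 16 genes listed as feedback inhibitors of EGFR signalling 0 passed. Their differences were positive for 12 and negative for 4, against 53.9% positive over all genes. Dusp4, a phosphatase that switches off ERK and related kinases, read 7.17, 7.48 and 6.58 in deficient replicates and 5.58, 5.92 and 6.18 in control replicates. The groups did not overlap, and the difference of 1.18 (SE 0.25) missed the threshold (limma adjusted p = 0.0816). Errfi1, an inhibitor that binds the EGFR kinase domain, read 10.91, 11.13 and 10.66 in deficient replicates and 9.69, 9.81 and 10.45 in control replicates. Its groups did not overlap either (0.91, SE 0.22, adjusted p = 0.111), its second probe set stood at 1.33, and against control replicate 3 alone the difference was 0.44. Lrig3, of a family of receptor inhibitors, stood at −0.50 (adjusted p = 0.12), and by its other probe sets at −0.49 and −0.14.

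Of 12 measured EGFR and ERK target genes 0 passed. Sphk1, the sphingosine kinase gene, stood at 0.86 (SE 0.18, limma adjusted p = 0.0886), and at 0.50 by its other probe set. The pleckstrin homology domain gene Phlda1 stood at 0.64 (adjusted p = 0.198). The cyclin gene Ccnd1 stood the other way, at −1.08 (SE 0.28, adjusted p = 0.126), with 9.36, 9.0 and 8.39 in deficient replicates and 9.92, 10.43 and 9.64 in control replicates. Of 15 measured adaptor and relay genes 0 passed, and the kinase gene Map2k1, the adaptor gene Grb2 and the adaptor gene Shc1 had the smallest p, at 0.49, 0.30 and 0.20 (adjusted p = 0.134, 0.281 and 0.391). The other Grb2 probe set had the opposite sign, at −0.25, and with the mean over its probe sets Grb2 stood at 0.02.

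Of 18 measured partners in plasminogen activation 0 passed, and the deficient arrays lay above the controls for 7 of them, against 11.5% of all genes. F3, the tissue factor gene that starts coagulation, stood at 0.85 (SE 0.20, limma adjusted p = 0.109), and at 0.44 against control replicate 3 alone. Anxa2, whose product binds plasminogen activator and plasminogen at the cell surface, read 13.18, 13.14 and 13.08 in deficient replicates and 12.64, 12.70 and 12.77 in control replicates, at a difference of 0.43 (SE 0.11, adjusted p = 0.118). The other Anxa2 probe sets stood at 0.19 and 0.20. Plg, the plasminogen gene, was dim and stood at 0.59 (adjusted p = 0.161). Tnfsf12, the gene of TWEAK, had 0 probe sets paired with it alone in this annotation and was not analysed here. Of 11 measured genes of TWEAK and non-canonical NF-kB signalling 0 passed. Tnfaip3, an inhibitor of NF-kB, stood at 0.61 (adjusted p = 0.185), and at 0.17 by its other probe set. Relb stood at 0.23 and Birc2 at −0.16. The plot by role shows these lists.

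**Figure D4:**
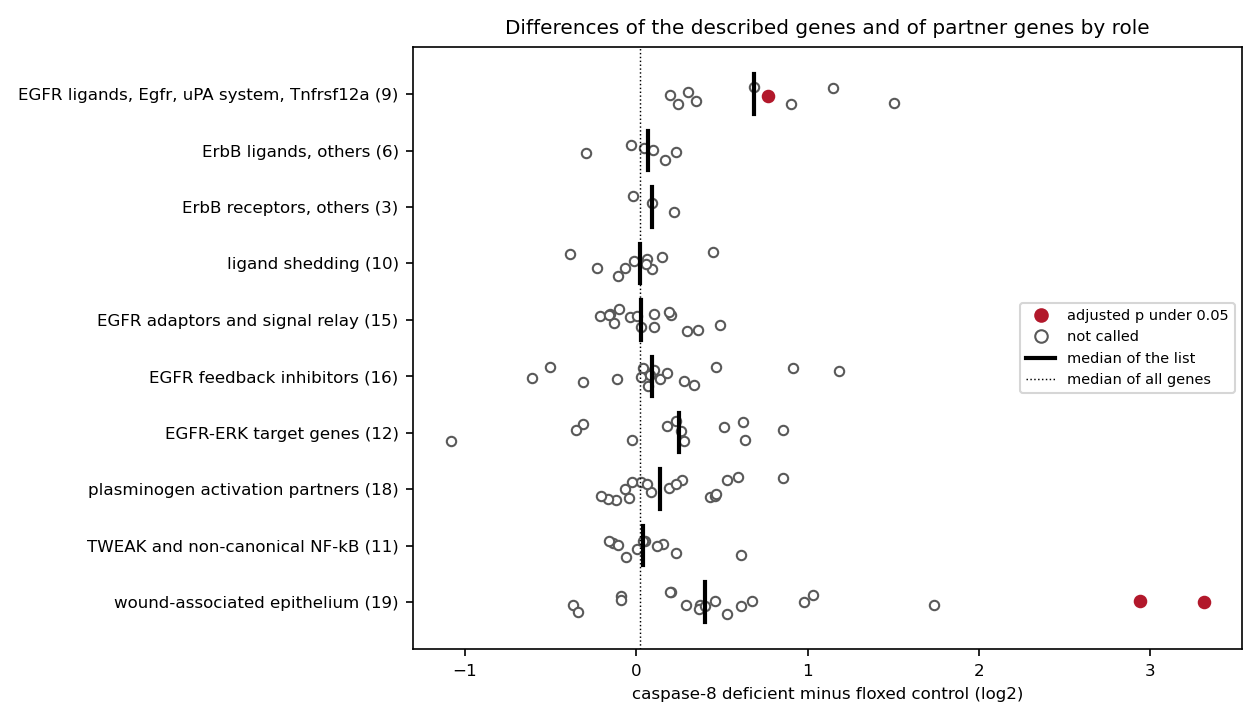
Log2 difference, caspase-8 deficient minus floxed control, of each measured gene by role, with the number measured in brackets; filled points passed (limma adjusted p under 0.05), bars mark the median of each list and the dotted line that of all genes (0.02). Plaur, Il1rn and Anxa1 are the filled points, and the medians of the 9 partner lists lie between 0.02 and 0.40.

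The genes most like Plaur and Tnfrsf12a across the 6 arrays were taken as those with the smallest root mean square difference between log2 profiles centred on each gene's mean. For Plaur these were Maats1, Smpdl3b, Tmem86a, Xk and Ifit1bl2, at 0.09, 0.09, 0.09, 0.10 and 0.10. Smpdl3b encodes a phosphodiesterase of the cell membrane, and its difference was 0.68. For Tnfrsf12a they were Pold4, Capg, Gch1, Bambi-ps1 and Rhbdl2, at 0.14, 0.14, 0.15, 0.19 and 0.19. Pold4 encodes a subunit of DNA polymerase delta, Capg an actin-capping protein and Gch1 the enzyme that starts tetrahydrobiopterin synthesis, and their differences were 1.05, 1.09 and 1.28. Among the 9 genes themselves the closest pair was Hbegf and Tgfa, at 0.15. With 6 arrays, 2 groups and 18193 genes such likeness is a description.

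Control replicate 3 was the highest control for 6 of the 9 genes, against 33.8% of all genes, and Plaur was not among the 6. For 3 of the 9, Ereg, Hbegf and Plat, it lay within or above the deficient range. The share of all genes with that order was not counted. Against control replicate 3 alone, leaving out the 2 arrays of larger Gapdh difference, the differences were 0.92 for Plaur, 0.61 for Egfr, 0.59 for Tnfrsf12a, 0.45 for Btc, 0.23 for Hbegf and 0.16 for Tgfa, and 0 of the 9 genes passed. In that setting 5 of 18193 genes passed in all. Control replicate 3 also led every other array by more than 1 log2 unit on 33 genes, against 1 and 7 for control replicates 1 and 2. It was the highest control for the mean of lymphocyte (7.64), pancreatic (5.14), fibroblast and smooth muscle (4.81) and myeloid markers (5.60). It was not the highest for epithelial, endothelial or kidney tubule markers. The contrast with that control therefore does not separate RNA quality from cell content. The parts of RNA quality and of other cells in these differences were not tested.

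**Figure D5:**
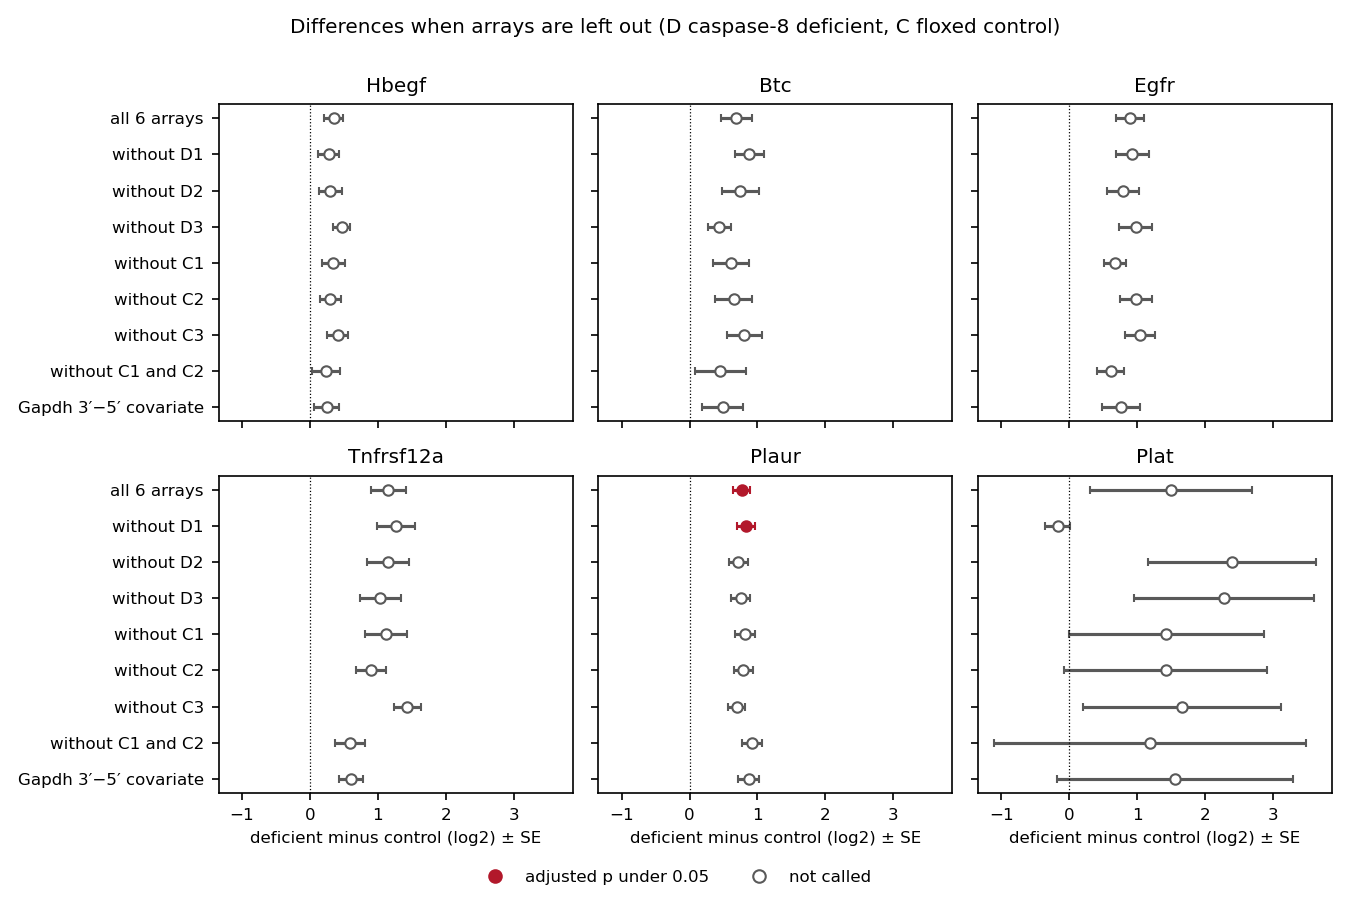
Log2 difference ± SE, caspase-8 deficient minus floxed control, for 6 genes with all arrays, without single arrays, without control replicates 1 and 2, and with the Gapdh difference as a covariate (D caspase-8 deficient, C floxed control). Filled points passed (limma adjusted p under 0.05), which Plaur did with all arrays and without D1; Plat turns to −0.17 without D1, and Tnfrsf12a stands at 0.59 without C1 and C2.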

How the data were processed

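Epithelial RNA of 6 mice was hybridised to Affymetrix 3′ expression arrays, 1 array per animal. Per the submitters' processing notes, the authors deposited RMA values (robust multi-array average), which are log2 expression per probe set on a common distribution; its version and settings and the genome build were not given in the sources used here. RMA compresses changes of dim genes, no detection calls are in the table, and precision is limited by the number of arrays.

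By the platform annotation, which may be out of date, 34945 of the 45101 probe sets had 1 gene, 932 several and 9160 none; 64 were controls. Groups and replicate numbers came from the sample titles. Each gene was represented by its probe set of highest mean (18193 genes), and deficient minus control was tested two-sided in R 4.3.3 with lmFit and eBayes of limma 3.58.1, with no term besides group, adjusted by Benjamini-Hochberg. All probe sets paired with 1 gene were tested separately in the same way. P-values set each group difference against the spread between animals, which limma moderates toward a value shared by all genes.

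The genes, partner lists and marker lists were chosen with earlier results of these arrays known. From each partner list, genes that passed are named, or otherwise the 3 with the smallest p, plus Epgn, Egf and Tnfsf12; 1 further gene is not reported here. Emcn, Umod, Mrc1, Cd14, S100a9, Itgam, Ptprc and the genes with the largest leads on deficient replicate 1 were named after their values were seen. In 10 simulated draws of this comparison with 200 of 18193 genes changed, 69.4% of changes of 1 on the log2 scale and 96.9% of changes of 2 were found. The draws gave every array the same spread for a gene, drawn from limma's own fit. These shares therefore assume that model and leave out differences in quality between the arrays. Alternatives were the replicate block, a filter on dim genes, other rules for probe sets, other variance models, array weights, other scalings, arrays left out, a Gapdh covariate and a fold minimum of 1.5. Promoter windows were searched by exact match of the stated letters on both strands.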

Additional observations from a re-analysis of the deposited data

How the results depend on the processing

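With the replicate number as a block, the count of the 9 genes that passed was 0, against 1 without it, as Plaur kept its difference of 0.77 with an adjusted p of 0.0811. In that fit 1 probe set passed of 22, against 0. The sample titles do not say whether same-numbered animals were paired. The correlations of same-numbered arrays' deviations from their group means were 0.08, 0.10 and −0.01. Deficient replicates 1 and 2 correlated best with their own number and deficient replicate 3 did not. With 3 arrays per group these correlations cannot decide whether the numbers pair the animals. The cause was not tested for the following changes unless named. Without dim genes, fewer genes being tested by construction, 2 of the 9 genes passed (Tnfrsf12a at 1.15), 2 of their probe sets, 5 partner genes and 298 genes in all. Without probe sets of the _x_at, _s_at and _a_at types 0 of the 9 passed, since Plaur has no other probe set. With a variance trend and robust prior 252 genes, 4 partner genes and 2 probe sets passed. With array weights 1406 genes passed, 22 partner genes, 6 probe sets and 4 of the 9 genes, Btc at 0.73, Egfr at 1.25 and Tnfrsf12a at 1.15 besides Plaur. Control replicate 1 had a weight of 2.97 and deficient replicate 2 of 2.36, and the other arrays 0.45 to 0.79. That fit therefore rests largely on 1 array of each group. Repeated quantile normalisation let 1 probe set pass. With the Gapdh covariate 36 genes passed, 1 partner gene and 0 of the 9, with Plaur at 0.87 (adjusted p = 0.174). Without control replicates 1 and 2 the counts were 5, 0 and 0, with Plaur at 0.92. When 1 array was left out, which lowers the number of samples, between 18 and 251 genes passed, 0 to 2 partner genes, 0 or 1 of the 9 genes and 0 to 2 of the 22 probe sets. Those counts of all genes were 251, 23 and 18 without deficient replicates 1, 2 and 3, and 23, 31 and 56 without control replicates 1, 2 and 3. Plaur stood between 0.69 and 0.83 and Plat between −0.17 and 2.40, the negative value without deficient replicate 1. Apart from Plat there, the 9 genes had positive differences in each setting that gave them a value; Plau and Plat had none without dim genes, and Plaur none without the types above. A minimum of 1.5-fold on the estimate beside the adjusted p, which is no test against that fold, left the counts at 1 of the 9 genes, 2 partner genes, 141 genes in all and 0 probe sets, although the lower confidence bound of Plaur, 0.48, lies below that minimum on the log2 scale. Of the partner genes named, 4 changed sign. Adam15 stood at 0.018 with the mean over probe sets and 0.055 without the types above, and Adam19 at 0.12 with array weights. Egf stood at −0.25 with array weights, at −0.18 without control replicates 1 and 2, and between −0.91 and 0.78 with 1 array left out. Erbb2 stood at 0.38 with the covariate, 0.36 without control replicates 1 and 2, and between −0.21 and 0.18 with 1 array left out. Dim genes and 3 arrays per group limit what could be called.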

Other observations

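The genes with the largest lead of deficient replicate 1 over every other array were Emcn (5.47 on the log2 scale), Sfrp2 (5.15), Podxl (4.85), Col4a1 (4.62) and Itga8 (4.59), followed by Plat (4.53). Emcn and Podxl encode sialomucins, of endothelium and of endothelium and podocytes, and Col4a1 a chain of basement membrane collagen. Slc12a1, the salt transporter gene of the kidney's loop of Henle, led by 4.36 and Umod by 4.32. These genes were picked because of their values on that array.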
